A study of Mus musculus with 8 samples.

Results

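Aminoacyl-tRNA synthetases and the enzymes that act with them were taken as the genes whose KEGG annotation in the deposited tables names aminoacyl-tRNA biosynthesis, which gave 43 of 34745 genes. By the enzyme names, 21 of them were cytosolic synthetases, 16 were mitochondrial synthetases (names ending in ars2) and 6 were other enzymes of charged tRNA. No mitochondrially encoded tRNA gene carried the annotation, and the files gave no KEGG term for Lars2, the mitochondrial leucyl-tRNA synthetase, which is therefore described separately. RNA sequencing was done on crypts, the glands of the intestinal epithelium, of wild-type C57BL/6 mice on day 5. The DSS_CA group (4 libraries) received CA, spelled out in the series title as cholic acid (a bile acid that the liver makes from cholesterol), together with DSS, or dextran sulfate sodium, which damages the lining of the gut. The DSS group (4 libraries) received DSS without CA, so both groups were injured and no uninjured crypts are compared here. No source used here gives the gut segment, the dose or the route. The labels do not say that the replicates came from separate animals, so a p-value reflects sample-to-sample spread alone, and that spread may be technical.

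A synthetase joins an amino acid to its matching tRNA at the cost of ATP, and each amino acid needs its own enzyme. The cytosol and the mitochondrion run separate protein synthesis, and most amino acids have one nuclear gene for the cytosolic enzyme and another for the mitochondrial enzyme. Gars and Kars are exceptions, since one gene of each gives both forms. In the cytosol several synthetases sit in one large particle, the multisynthetase complex, held together by the non-enzymatic proteins Aimp1, Aimp2 and Eef1e1. Many cytosolic synthetase genes are known targets of ATF4, a transcription factor of the amino acid and unfolded protein stress responses. In gut crypts, where cells divide throughout life, charged tRNA feeds a high rate of protein synthesis.

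Total counts lay between 13334012 and 17973196 per library. Counted genes averaged 1445 to 2412 bases in length in the DSS_CA libraries and 1423 to 2234 bases in the DSS libraries. DSS_CA 3, DSS 2 and DSS 3 had the shortest averages, and values without these 3 libraries are given beside the counts of members and of the ATF4 and interferon genes. Mitochondrially encoded transcripts took 9.72% to 20.5% of counts in DSS_CA and 16.2% to 27.7% in DSS. Summed levels of 7 epithelial markers were 7192 to 9482 CPM (counts scaled to library size) in DSS_CA and 7279 to 9367 CPM in DSS. Enterocyte markers of the small intestine were abundant in both groups, and the 6 colonocyte markers summed to 224 to 380 CPM in DSS_CA and 151 to 287 CPM in DSS. Of those 6, Slc26a3 and Ceacam20 passed the filter and Car1 had 0 counts in all 8 libraries. Summed T and NK cell markers were 127 to 1133 CPM in DSS_CA and 614 to 2077 CPM in DSS, and all 12 of the 13 that could be tested had a log2 fold change below 0. Summed B and plasma cell markers were 7.47 to 22.2 CPM in DSS_CA and 31.2 to 70.3 CPM in DSS. Summed Paneth cell markers were 4804 to 17500 CPM in DSS_CA and 6456 to 38550 CPM in DSS, and DSS_CA 3, DSS 2 and DSS 3 were again the highest of their groups. Summed goblet cell markers were 3576 to 7863 CPM in DSS_CA and 7894 to 11770 CPM in DSS, without overlap, and 6 of 7 had a log2 fold change below 0. Summed myeloid markers were 8.15 to 39.3 CPM in DSS_CA and 33.4 to 150 CPM in DSS. Summed markers of stem and proliferating cells were 660 to 948 CPM in DSS_CA and 655 to 2002 CPM in DSS. Of the 7 of these that were tested, 3 had a log2 fold change above 0 and 4 below, with a median of -0.37. The part of this cell makeup in the synthetase values was not tested, and in bulk samples fewer cells of a type and less RNA per cell cannot be told apart.

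Levels are CPM scaled by the TMM method, fold changes are DSS_CA over DSS on the log2 scale, and the test was the quasi-likelihood test of edgeR with Benjamini-Hochberg adjustment over all genes tested. A gene was tested where its deposited FPKM, a level per kilobase of gene and per library size, was 1 or more in 4 or more of the 8 libraries. Of the 43 members, 40 were tested: 20 cytosolic synthetases, 14 mitochondrial synthetases and all 6 other enzymes. Tarsl2, Pars2 and Wars2 were below the filter, with means of 7.51, 3.22 and 8.92 CPM in DSS_CA and 5.23, 3.39 and 6.18 CPM in DSS.

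The cytosolic synthetases stood higher in DSS_CA crypts than in DSS crypts as a class, while no single member passed the adjusted threshold. All 20 had a log2 fold change above 0, with a median of 0.65 and a range of 0.08 to 1.10. The count was 19 of 20 without DSS_CA 3, where Dars was at -0.19, and 19 of 20 with the mean counted gene length as a covariate, where Vars was at -0.08. Over all 9913 genes tested, 51.9% were above 0 and the median was 0.02. By edgeR 0 of the 40 members had an adjusted p under 0.05, against 0.0404% of all genes called higher and 0.0908% called lower, and the lowest adjusted p among members was 0.136, for Cars. At an unadjusted p under 0.05, 13 of the 40 members were higher and 0 were lower, against 2.97% of all genes higher and 4.85% lower. These 13 were 9 cytosolic synthetases, 2 mitochondrial synthetases and 2 other enzymes. In 7 of the 40, every DSS_CA library lay above every DSS library, against 3.24% of all genes, and 0 had every DSS_CA library below every DSS library, against 2.81% of all genes. With the DESeq2 Wald test, Cars and Gars had adjusted p-values of 0.0119 and 0.0425, against 0.514% of all genes called higher by that test. Without DSS_CA 3, DSS 2 and DSS 3, 6 cytosolic members passed in edgeR (Cars, Gars, Mars, Sars, Tars and Yars), against 2.36% of all genes. With the mean counted gene length as a covariate, 8 passed (Cars, Dars, Gars, Hars, Nars, Sars, Tars and Yars), against 2.97% of all genes.

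**Figure D1:**
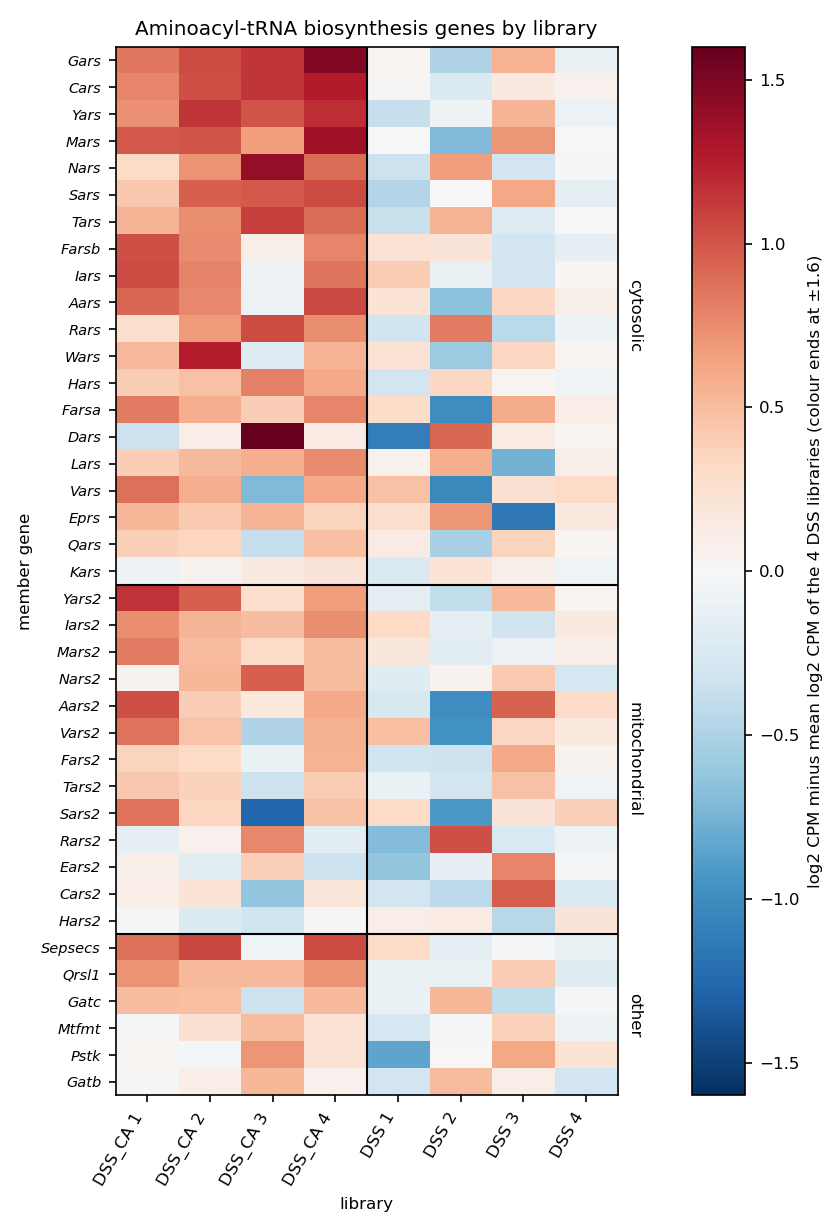
Each cell is the log2 CPM of one of 39 tested members in a library minus the mean log2 CPM of that gene over the 4 DSS libraries, with DSS_CA libraries left of the black line and genes sorted by fold change within each class. The upper block of cytosolic genes is mostly red in the DSS_CA columns, with pale or blue cells for several genes in DSS_CA 3, and the mitochondrial block is mixed.

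The members' summed share of all counts was 0.303%, 0.299%, 0.211% and 0.324% in the DSS_CA libraries, against 0.192%, 0.147%, 0.148% and 0.170% in the DSS libraries. The groups did not overlap in this share, and DSS_CA 3 was the lowest of its group. Scaled by TMM, the members' sum was 2331 to 2844 CPM in DSS_CA and 1559 to 1998 CPM in DSS, and DSS_CA 3 was the highest. The TMM factors were 1.30, 1.16, 0.742 and 1.16 in DSS_CA 1 to 4, and 1.23, 0.738, 0.834 and 1.01 in DSS 1 to 4. A lower factor raises the CPM, and the libraries of short counted genes (DSS_CA 3, DSS 2 and DSS 3) had the lowest. For the 20 tested cytosolic genes, the median deviation from the DSS mean was 0.53, 0.73, 0.62 and 0.78 log2 units in DSS_CA 1 to 4, against 0.03, -0.04, 0.14 and 0.02 in DSS 1 to 4. In DSS_CA 1 to 4, 18, 19, 15 and 19 of the 20 genes lay above their DSS mean CPM, and in DSS 1 to 4 this held for 9, 9, 12 and 7. The cytosolic median was thus nearly level within each group. Single genes were less so. Within DSS_CA, Dars, Nars, Tars, Rars, Hars and Eprs were highest in DSS_CA 3, while Aars, Iars, Vars, Wars, Mars, Farsa, Farsb and Qars were lowest there. Across the 20 genes, the deviation of a library from its group had a Spearman rho with the gene length implied by the FPKM of 0.45, 0.61, -0.54 and 0.34 in DSS_CA 1 to 4, against 0.46, -0.43, 0.28 and 0.52 in DSS 1 to 4. DSS_CA 3 and DSS 2 were thus negative, and DSS 3, which also had short counted genes, was positive. The log2 fold change itself had a rho of -0.23 with that length. These correlations are across genes, which share libraries and are not independent.

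**Figure D2:**
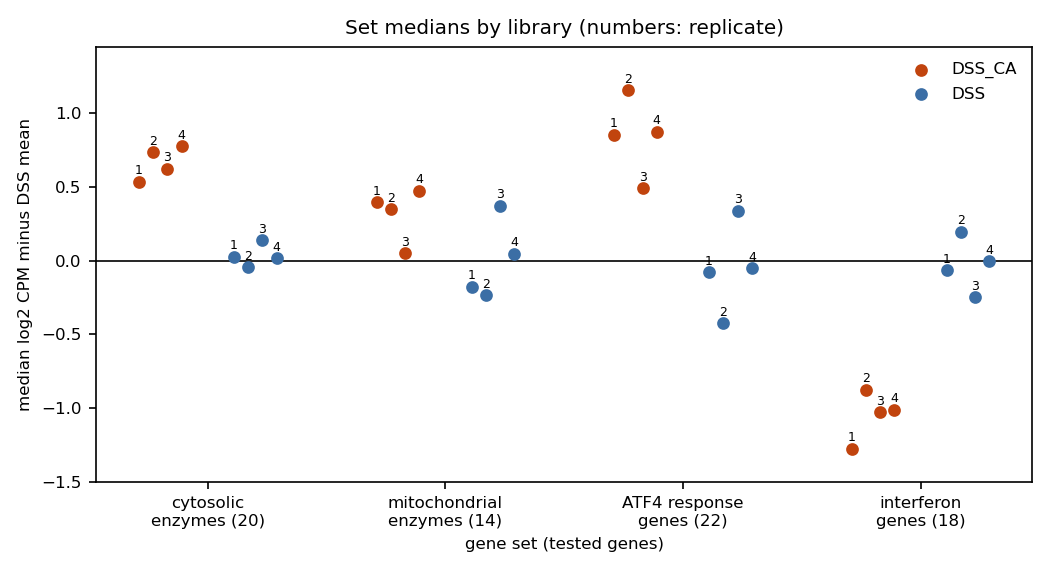
Points are the median, over the tested genes of each set, of log2 CPM minus the DSS mean in one library, with DSS_CA left of DSS in each pair and the replicate number above each point. Cytosolic synthetases lie at 0.53 to 0.78 in DSS_CA and -0.04 to 0.14 in DSS, and the mitochondrial synthetases of the 2 groups overlap.

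Among the synthetases that work outside the complex, 12 were tested and their median log2 fold change was 0.74. Cars, the cysteinyl-tRNA synthetase (chromosome 7, 143557230 to 143600090, GRCm38), had the smallest p of all members. Its levels were 39.2, 46.7, 50.7 and 54.9 CPM in DSS_CA, against 23.2, 19.5, 25.2 and 23.9 CPM in DSS. Every DSS_CA library was above every DSS library, and the log2 fold change was 1.06 (SE 0.253, edgeR adjusted p = 0.136). Leaving out any one library gave log2 fold changes of 0.99 to 1.15.

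Gars, the glycyl-tRNA synthetase (chromosome 6, 55038007 to 55079500), which also serves mitochondria, had the largest fold change. Its levels were 131, 149, 161 and 203 CPM in DSS_CA, against 74.6, 51.9, 107 and 67.7 CPM in DSS. The groups did not overlap, with DSS 3 the closest to DSS_CA, and the log2 fold change was 1.10 (SE 0.304, edgeR adjusted p = 0.211). Yars, the tyrosyl-tRNA synthetase (chromosome 4, 129189760 to 129219607), had 47.0, 62.6, 56.8 and 64.1 CPM in DSS_CA, against 22.0, 26.8, 41.1 and 26.5 CPM in DSS. Its groups did not overlap either, again with DSS 3 the highest DSS library, and its log2 fold change was 0.99 (SE 0.285, edgeR adjusted p = 0.245). Hars, the histidyl-tRNA synthetase, had 51.1, 54.1, 68.0 and 59.3 CPM in DSS_CA, against 31.6, 49.1, 40.3 and 37.3 CPM in DSS. Its groups did not overlap, at a log2 fold change of 0.56 and an edgeR adjusted p of 0.663.

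Tars, Sars and Nars charge threonine, serine and asparagine. Tars had 117, 135, 172 and 149 CPM in DSS_CA, against 62.7, 117, 69.6 and 80.5 CPM in DSS. Sars had 103, 150, 152 and 159 CPM in DSS_CA, against 55.5, 76.6, 118 and 69.4 CPM in DSS. In each of these genes the only overlap came from 1 DSS library, DSS 2 for Tars and DSS 3 for Sars, which reached the lowest DSS_CA library. Nars, the most abundant member, had 344, 453, 727 and 509 CPM in DSS_CA, against 217, 439, 222 and 271 CPM in DSS. Its overlap was DSS 2 above DSS_CA 1, and DSS_CA 3 was its highest library. The log2 fold changes were 0.80 for Tars, 0.82 for Sars and 0.82 for Nars, with edgeR adjusted p-values of 0.442, 0.475 and 0.594.

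Farsb and Farsa encode the beta and alpha subunits of the phenylalanyl-tRNA synthetase, which acts as a tetramer of both. Farsb had 69.4, 57.6, 36.4 and 58.5 CPM in DSS_CA, against 39.8, 39.1, 27.5 and 31.1 CPM in DSS, and only DSS_CA 3 overlapped the DSS libraries. The log2 fold change was 0.69 for Farsb and 0.55 for Farsa, with edgeR adjusted p-values of 0.556 and 0.843. Aars, the alanyl-tRNA synthetase, had 118, 107, 58.5 and 131 CPM in DSS_CA, against 72.9, 39.9, 78.9 and 66.9 CPM in DSS. Its only DSS_CA library inside the DSS range was again DSS_CA 3, and the log2 fold change was 0.68 (SE 0.334, edgeR adjusted p = 0.692). Vars, the valyl-tRNA synthetase, had a log2 fold change of 0.35.

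**Figure D3:**
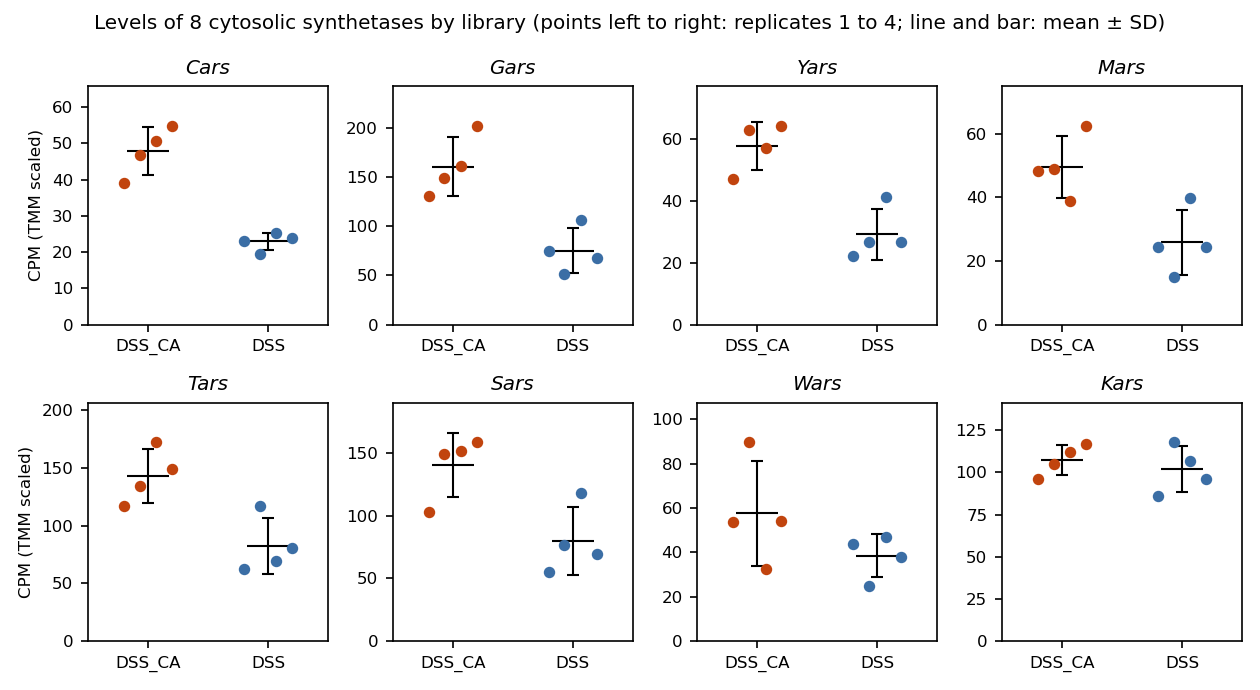
Points are TMM-scaled CPM of 8 cytosolic synthetases in each library, replicates 1 to 4 from left to right within a group, with the group mean (line) and SD (bar, n = 4), and every axis starts at 0. The groups are apart in Cars, Gars and Yars, and they overlap in Mars, Tars, Sars, Wars and Kars.

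Wars, the tryptophanyl-tRNA synthetase, is known in human cells as an interferon-induced gene. It had 53.7, 89.6, 32.5 and 54.3 CPM in DSS_CA, against 43.8, 24.9, 46.9 and 38.1 CPM in DSS. DSS_CA 2 was its highest library and DSS_CA 3 its lowest of that group, inside the DSS range. The log2 fold change was 0.58 (SE 0.350, edgeR adjusted p = 0.805), and it was 0.29 without DSS_CA 2. The interferon response genes lay the other way. All 18 of the 23 listed that could be tested had a log2 fold change below 0, with a median of -1.11, and 16 had an unadjusted p under 0.05, against 4.85% of all genes lower. By edgeR 0 passed the adjusted threshold, and by DESeq2 5 did, against 1.7% of all genes called lower by that test. Without DSS_CA 3, DSS 2 and DSS 3, 8 passed in edgeR, against 4.25% of all genes lower. Ido1, which breaks down tryptophan, had 1.52, 6.07, 16.4 and 5.28 CPM in DSS_CA, against 41.7, 101, 42.8 and 37.1 CPM in DSS. Every DSS_CA library was below every DSS library, and its log2 fold change was -2.94 (SE 0.632, edgeR adjusted p = 0.0990). Gbp2, a guanylate-binding protein of host defence, and Irf7, a transcription factor of the interferon response, had log2 fold changes of -1.84 and -1.16 with edgeR adjusted p-values of 0.0880 and 0.110, and their groups did not overlap. Wars therefore had the opposite sign from every tested gene of that list; the list was chosen with earlier results of these data known, and the difference between Wars and the list was not tested. T and NK cell markers, given above, were lower in DSS_CA alongside the interferon genes.

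The 8 synthetases of the multisynthetase complex were all tested, all had a log2 fold change above 0, and their median was 0.52. Mars, the methionyl-tRNA synthetase, was first among them, with 48.2, 49.0, 38.8 and 62.5 CPM in DSS_CA, against 24.5, 15.0, 39.8 and 24.4 CPM in DSS. DSS 3 lay just above DSS_CA 3, and the other DSS libraries were below all of DSS_CA. The log2 fold change was 0.94 (SE 0.330, edgeR adjusted p = 0.404). Mars and Ddit3, a transcription factor gene of the stress response, overlap by 68 bases on opposite strands. Ddit3 had a log2 fold change of -0.33, so the 2 genes differed in sign, and no source used here gives the strand setting of the counting.

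Iars (isoleucine) and Rars (arginine) had log2 fold changes of 0.69 and 0.61, with edgeR adjusted p-values of 0.636 and 0.764. Lars (leucine) was at 0.49. Dars, the aspartyl-tRNA synthetase, was at 0.54 and was uneven within both groups. It had 56.9, 78.2, 261 and 79.3 CPM in DSS_CA, against 33.8, 138, 79.7 and 74.7 CPM in DSS. DSS_CA 3 was more than the other DSS_CA libraries put together, and DSS 2 stood above the rest of its group. Without DSS_CA 3 the log2 fold change of Dars was -0.19.

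The lowest fold changes of the class belonged to complex enzymes. Eprs, a single protein that charges both glutamate and proline, had 106, 98.0, 107 and 93.6 CPM in DSS_CA, against 89.2, 119, 33.2 and 81.9 CPM in DSS. DSS 3 was far below the other libraries, and the log2 fold change was 0.32 (SE 0.358, edgeR adjusted p = 0.965); it was 0.06 without DSS 3. Qars, the glutaminyl-tRNA synthetase, had 141, 137, 83.8 and 150 CPM in DSS_CA, against 118, 75.1, 138 and 110 CPM in DSS, which gave a log2 fold change of 0.21 (SE 0.303, edgeR adjusted p = 0.981). Kars, the lysyl-tRNA synthetase of both compartments, had 95.8, 105, 112 and 117 CPM in DSS_CA, against 86.2, 118, 107 and 96.3 CPM in DSS. The Kars groups covered nearly the same range, at a log2 fold change of 0.08 (SE 0.250, edgeR adjusted p = 0.999).

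The scaffolds of the complex also had values above 0. Aimp2 had 30.8, 33.8, 32.9 and 37.6 CPM in DSS_CA, against 18.7, 18.8, 36.3 and 20.7 CPM in DSS. Only DSS 3 reached the DSS_CA range, and the log2 fold change was 0.52 (SE 0.295, edgeR adjusted p = 0.774). Aimp1 had a log2 fold change of 0.30 (SE 0.377, edgeR adjusted p = 0.971), and without 1 library it was between 0.00 (without DSS_CA 3) and 0.60. Eef1e1 had 20.4, 42.9, 183 and 37.5 CPM in DSS_CA, against 11.6, 60.3, 80.3 and 38.2 CPM in DSS. Its log2 fold change of 0.57 rested on DSS_CA 3 and was -0.50 without that library.

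**Figure D4:**
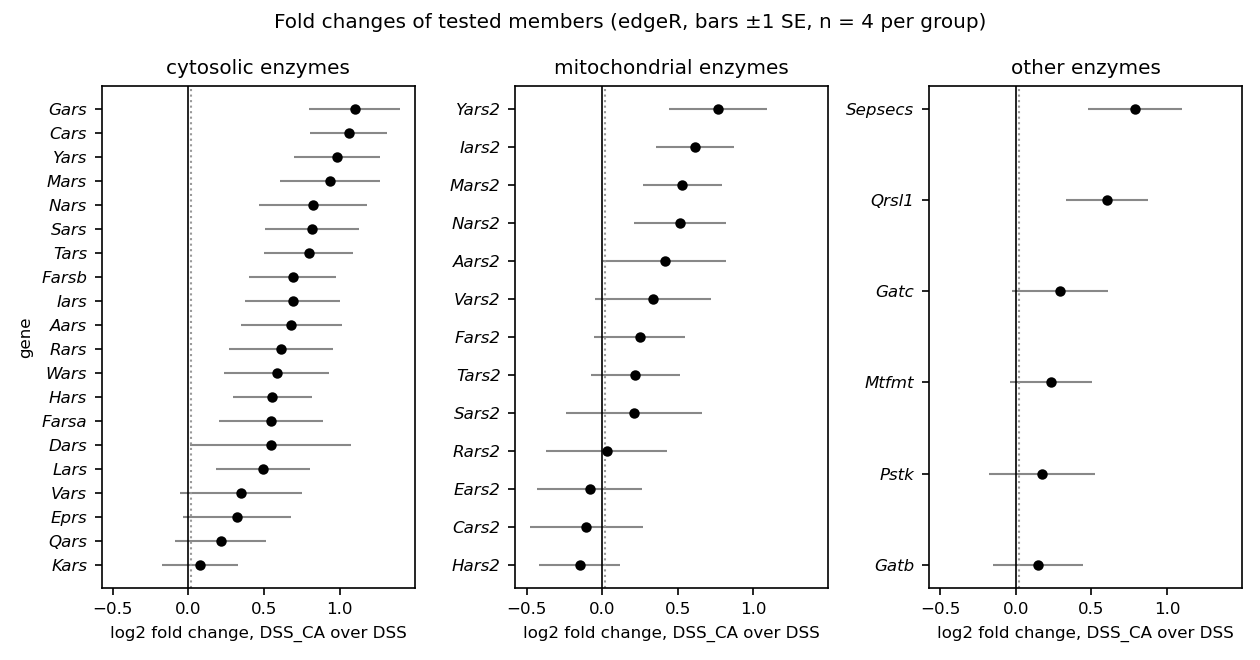
Points are log2 fold changes of 39 tested members, DSS_CA over DSS, with bars of 1 SE (n = 4 per group), the solid line at 0 and the dotted line at the median of all genes tested. All 20 cytosolic synthetases lie right of 0, from Kars at 0.08 to Gars at 1.10, while the 13 mitochondrial synthetases drawn run from -0.15 to 0.77.

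The mitochondrial synthetases charge the tRNAs of the organelle, which translates only a few subunits of the respiratory chain. Of the 14 tested, 10 had a log2 fold change above 0 and 4 below, with a median of 0.23. Their median deviation from the DSS mean was 0.40, 0.35, 0.05 and 0.48 log2 units in DSS_CA 1 to 4, against -0.18, -0.24, 0.37 and 0.05 in DSS 1 to 4. The groups overlapped, with DSS_CA 3 low and DSS 3 high. The class median was 0.13 without DSS 2, 0.41 without DSS 3, and 0.41 without DSS_CA 3, DSS 2 and DSS 3 together.

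Iars2 and Mars2, for isoleucine and methionine, were the mitochondrial genes without overlap. Iars2 had 63.1, 55.2, 53.2 and 63.0 CPM in DSS_CA, against 47.0, 34.1, 30.2 and 42.0 CPM in DSS, a log2 fold change of 0.61 (SE 0.260, edgeR adjusted p = 0.573). Mars2 had 22.6, 18.0, 15.8 and 18.0 CPM in DSS_CA, against 14.5, 11.4, 12.0 and 13.7 CPM in DSS, a log2 fold change of 0.53 (SE 0.262, edgeR adjusted p = 0.693). In Mars2 the lowest DSS_CA library stood only slightly above the highest DSS library. Yars2, for tyrosine, had the largest fold change of the class. It had 15.5, 13.5, 8.39 and 11.1 CPM in DSS_CA, against 6.21, 5.28, 9.93 and 7.13 CPM in DSS. DSS_CA 3 and DSS 3 crossed over, and the log2 fold change was 0.77 (SE 0.323, edgeR adjusted p = 0.568). Nars2 and Aars2 had log2 fold changes of 0.52 and 0.41, with edgeR adjusted p-values of 0.800 and 0.948.

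5 more lay between 0.03 and 0.33, namely Vars2, Fars2, Tars2, Sars2 and Rars2. Ears2, Cars2 and Hars2 were below 0, at -0.08, -0.11 and -0.15. Hars2, which lies head to head with Hars and overlaps it on the opposite strand, had 18.7, 16.3, 15.2 and 19.2 CPM in DSS_CA, against 20.4, 20.8, 14.0 and 21.9 CPM in DSS. The pair thus differed in sign, with Hars at 0.56, and reads of the stretch they share cannot be told apart without the strand setting. Lars2, outside the annotation, had 33.0, 24.5, 16.4 and 26.4 CPM in DSS_CA, against 22.6, 12.9, 25.2 and 20.6 CPM in DSS, a log2 fold change of 0.30 (SE 0.317, edgeR adjusted p = 0.959). In all, 14 of the 43 members overlap another protein-coding gene, 12 of them one on the opposite strand.

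For 11 amino acids the cytosolic and the mitochondrial gene were compared with each other, and their count ratio within a library does not depend on the scaling of libraries. The mean log2 ratio of cytosolic to mitochondrial counts was higher in DSS_CA in 10 of 11 pairs, with a median difference of 0.48. Cars over Cars2 was the pair whose groups did not overlap. Its log2 ratios were 1.40, 1.53, 2.49 and 1.79 in DSS_CA, against 1.05, 0.92, -0.10 and 1.02 in DSS. Part of that distance came from DSS 3, where Cars2 was at 27.0 CPM, against 10.3 to 11.8 CPM in the other DSS libraries. Vars over Vars2 was the pair with a difference below 0, at -0.01, and Iars over Iars2 was at 0.02. The difference between the classes was not tested, since the pairs share the same 8 libraries.

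**Figure D5:**
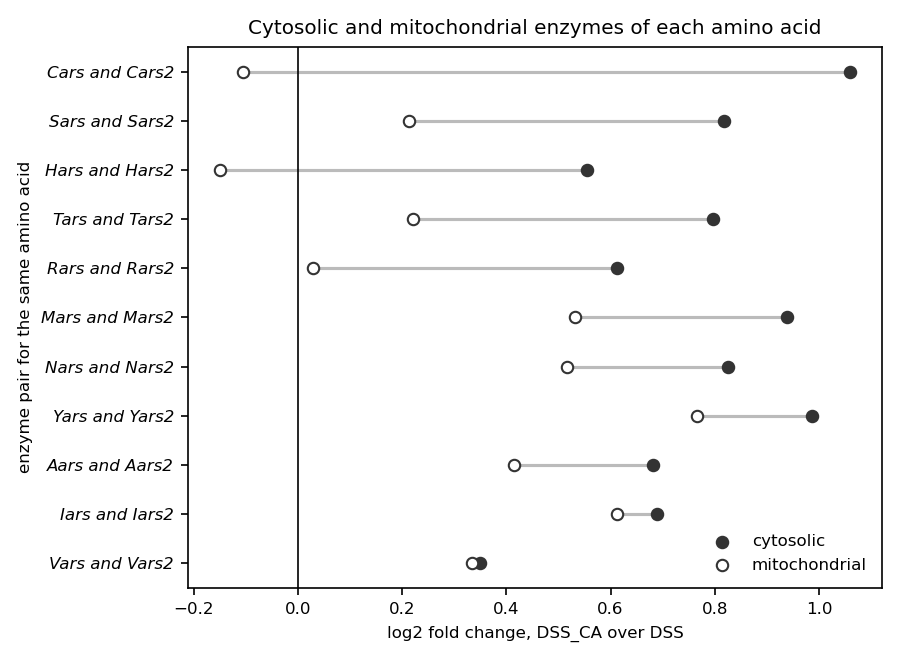
Filled points are the log2 fold change (DSS_CA over DSS) of the cytosolic gene and open points that of the mitochondrial gene for the same amino acid, joined by a grey line. The filled point lies to the right in each of the 11 pairs; Cars and Cars2 are farthest apart and Vars and Vars2 closest.

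The 6 other enzymes finish or correct charged tRNAs, and all 6 had a log2 fold change above 0, with a median of 0.26. Without DSS_CA 3, DSS 1 or DSS 4, 5 of the 6 did. Sepsecs makes selenocysteine on its tRNA from the phosphoseryl form that Pstk supplies. Sepsecs had 42.8, 48.9, 22.1 and 48.1 CPM in DSS_CA, against 28.9, 20.9, 22.7 and 21.4 CPM in DSS, and DSS_CA 3 alone fell in the DSS range. Its log2 fold change was 0.79 (SE 0.309, edgeR adjusted p = 0.500), and that of Pstk was 0.17. Qrsl1, Gatb and Gatc form the mitochondrial amidotransferase, which turns glutamate on the glutamine tRNA into glutamine in place of a mitochondrial glutaminyl-tRNA synthetase. Qrsl1 had 15.5, 13.5, 13.5 and 15.4 CPM in DSS_CA, against 8.74, 8.75, 12.5 and 8.19 CPM in DSS. Its groups did not overlap, and its log2 fold change was 0.60 (SE 0.272, edgeR adjusted p = 0.636), while Gatc was at 0.29 and Gatb at 0.15. Mtfmt, which formylates the mitochondrial initiator tRNA, was at 0.23.

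On the per-length scale of the deposited FPKM, Nars ranked first among the 43 members in both groups, at 200 ± 22.6 FPKM in DSS_CA and 99.6 ± 21.9 FPKM in DSS (SD, n = 4 each). In DSS_CA, Tars (57.9 ± 7.21 FPKM), Gars (47.8 ± 13.0 FPKM) and Kars (44.0 ± 8.70 FPKM) followed, and each differed from the next by less than the larger of their SDs. In DSS the order after Nars was Kars (35.8 ± 3.27 FPKM), Tars (28.8 ± 4.72 FPKM), Rars (23.4 ± 6.85 FPKM) and Gars (19.7 ± 6.74 FPKM). Kars thus ranked 4 in DSS_CA and 2 in DSS. The median of the mean FPKM was 13.3 in DSS_CA and 7.83 in DSS for cytosolic synthetases, and 2.76 in DSS_CA and 2.44 in DSS for mitochondrial synthetases. The log2 ratio of summed FPKM was 0.89 for the cytosolic and 0.43 for the mitochondrial class, on a scale per total count without TMM. The gene lengths behind the FPKM were 0.658 (Tars) to 4.87 (Qars) times the longest coding transcript in GENCODE M21. By that transcript length Nars stayed first in both groups, Rars was second in both, and Tars was eighth in both, so most ranks depend on the length used.

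The promoters of the members were also searched for short motifs. RefSeq promoters on GRCm38.p6, from 250 bases before to 50 after the transcription start, were matched for 31 of the 43 members. The letters TGATGNAA, the core of the C/EBP-ATF response element that ATF4 is known to bind, were looked for on both strands. They were in the promoters of 5 of 14 cytosolic synthetases (35.7%), in 0 of 14 windows of mitochondrial synthetases, in 0 of 4 windows of other enzymes, and in 1304 of 32851 windows of all genes (3.97%). The 5 genes are given here from 250 bases before the start to the first 20 bases after it, with Kars, the cytosolic gene with the lowest fold change and no match, for comparison. Capitals mark the match, which reads in reverse complement in all but Yars, each sequence runs 5′ to 3′ along the gene's strand, and no match shared bases with another motif searched.
Gars promoter, chr6:55037751-55038020, plus strand: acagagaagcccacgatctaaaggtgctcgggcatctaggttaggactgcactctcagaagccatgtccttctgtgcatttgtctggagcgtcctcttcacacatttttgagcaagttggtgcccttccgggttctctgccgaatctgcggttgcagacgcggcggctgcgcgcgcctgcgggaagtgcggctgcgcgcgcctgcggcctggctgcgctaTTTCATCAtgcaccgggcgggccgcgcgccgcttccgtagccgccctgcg
Yars promoter, chr4:129189653-129189922, plus strand: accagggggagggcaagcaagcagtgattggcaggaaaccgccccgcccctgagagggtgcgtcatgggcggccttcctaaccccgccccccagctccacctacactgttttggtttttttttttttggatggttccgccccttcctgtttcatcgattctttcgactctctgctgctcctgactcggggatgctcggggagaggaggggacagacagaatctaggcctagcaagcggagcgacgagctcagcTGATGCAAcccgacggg
Tars promoter, chr15:11399639-11399908, minus strand: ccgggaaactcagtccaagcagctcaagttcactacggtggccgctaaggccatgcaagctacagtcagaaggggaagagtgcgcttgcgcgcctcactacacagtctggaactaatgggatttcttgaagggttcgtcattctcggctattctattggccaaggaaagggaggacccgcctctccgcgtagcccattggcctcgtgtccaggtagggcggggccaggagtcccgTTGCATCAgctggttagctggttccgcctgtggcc
Iars promoter, chr13:49681880-49682149, plus strand: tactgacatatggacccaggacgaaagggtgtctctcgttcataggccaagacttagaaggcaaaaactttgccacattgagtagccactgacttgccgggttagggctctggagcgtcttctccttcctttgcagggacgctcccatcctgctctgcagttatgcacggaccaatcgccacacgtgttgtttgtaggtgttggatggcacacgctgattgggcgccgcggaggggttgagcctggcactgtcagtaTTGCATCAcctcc
Aars promoter, chr8:111033592-111033861, plus strand: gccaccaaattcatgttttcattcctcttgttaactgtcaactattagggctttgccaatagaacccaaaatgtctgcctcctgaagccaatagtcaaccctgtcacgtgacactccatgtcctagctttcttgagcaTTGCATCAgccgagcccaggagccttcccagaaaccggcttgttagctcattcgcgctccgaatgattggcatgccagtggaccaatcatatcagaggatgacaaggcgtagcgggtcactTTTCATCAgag
Kars promoter, chr8:112011335-112011604, minus strand: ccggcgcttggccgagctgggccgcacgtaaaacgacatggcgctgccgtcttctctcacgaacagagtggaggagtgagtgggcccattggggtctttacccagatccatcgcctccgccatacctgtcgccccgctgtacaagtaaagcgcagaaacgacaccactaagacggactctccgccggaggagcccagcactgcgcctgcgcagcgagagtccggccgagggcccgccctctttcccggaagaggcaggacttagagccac

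Matches began 30 bases before the start in Gars and 15 before it in Tars, and at base 4 after the start in Yars and base 8 in Iars. Aars had a pair of them, 112 bases before the start and at base 10 after it. The log2 fold changes of the 5 genes were 0.68 to 1.10, with a median of 0.80. Those of the 8 tested genes whose promoter had no match were 0.08 to 0.94, with a median of 0.55, and Mars and Sars, at 0.94 and 0.82, were among them. No promoter was matched for Cars, Hars, Lars, Nars, Rars, Vars and Wars, so they are in neither median. The difference between the medians was not tested. The E-box CACGTG, which Myc and related factors bind, was in 4 of 14 cytosolic promoters (28.6%: Aars, Farsb, Iars and Tars), against 7.15% of all windows. The core of the interferon-stimulated response element (GAAA, any 2 bases, GAAA) was in 1 of 14 (Qars), against 3.44%, and the STAT motif TTCNNNGAA in 2 of 14 (Aars and Kars), against 8.30%. A match is a description of the letters in this window and not of factor binding.

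Other genes of the ATF4 amino acid response were compared from a list chosen with earlier results of these data known. Of 25 listed, 22 were tested, 18 had a log2 fold change above 0 and the median was 0.99. At an unadjusted p under 0.05, 11 were higher and 1 was lower, against 2.97% and 4.85% of all genes. Psat1 was the 1 gene past the adjusted threshold in edgeR, against 0.0404% of all genes higher, and 6 genes passed with DESeq2, against 0.514%. Without DSS_CA 3, DSS 2 and DSS 3, 10 of the 22 passed in edgeR, against 2.36% of all genes. Psat1, an aminotransferase of serine synthesis, rose in DSS_CA: it had 37.0, 52.1, 59.6 and 68.7 CPM, against 6.39, 7.54, 16.2 and 8.81 CPM in DSS. The groups were far apart, at a log2 fold change of 2.48 (SE 0.367, edgeR adjusted p = 0.0285). The edgeR adjusted p was 0.101 without DSS_CA 2, 0.0892 without DSS_CA 4, 0.0609 without DSS 1, 0.0821 without DSS 2 and 0.183 without DSS 4, each at a log2 fold change of 2.33 or more. Asns, the asparagine synthetase, had 54.7, 97.6, 104 and 134 CPM in DSS_CA, against 22.7, 29.2, 32.3 and 24.1 CPM in DSS. It too had no overlap, at a log2 fold change of 1.85 (SE 0.324, edgeR adjusted p = 0.0502). Atf5, a related transcription factor, was at 2.33 (SE 0.509, edgeR adjusted p = 0.102). The Atf4 transcript itself, whose control is known to be largely translational, had 198, 246, 184 and 198 CPM in DSS_CA, against 173, 150, 197 and 162 CPM in DSS. Its groups overlapped, at a log2 fold change of 0.27 (edgeR adjusted p = 0.942).

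With all 8 libraries and group as the only term, the steps before and after charging had medians nearer to 0 than the cytosolic synthetases. Of 32 genes of tRNA maturation and export, 27 were tested, 22 were above 0, the median log2 fold change was 0.19, and 1 had an unadjusted p under 0.05. Without DSS_CA 3 or without DSS 1, 15 of the 27 were above 0. With the mean counted gene length as a covariate 24 were, and the median was 0.42. Without DSS_CA 3, DSS 2 and DSS 3 together the median was 0.40. The gene with an unadjusted p under 0.05 was Xpot, the nuclear export receptor of tRNA. Xpot had 66.3, 61.7, 40.4 and 69.3 CPM in DSS_CA, against 49.2, 29.7, 29.0 and 37.3 CPM in DSS. Only DSS_CA 3 lay inside the DSS range, and the log2 fold change was 0.71 (SE 0.296, edgeR adjusted p = 0.556). Elac2, which trims the 3′ end of tRNA, and Pus7, a pseudouridine synthase, were at 0.75 and 0.56, with edgeR adjusted p-values of 0.670 and 0.700.

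Of 20 genes of RNA polymerase III, which transcribes tRNA genes, 13 were above 0, the median was 0.17, and 0 had an unadjusted p under 0.05 by edgeR. Maf1, the repressor of that polymerase, was at -0.55 with an edgeR adjusted p of 0.828, and its highest level was 86.3 CPM in DSS 3. The subunit gene Polr3d and the initiation factor gene Gtf3c4 were each at 0.48. The 6 editing and deacylase genes, which clear mischarged tRNA, were all above 0 with a median of 0.29, led by Aarsd1 at 0.49 and Dtd1 at 0.38. Their direction rested on DSS_CA 3, without which 3 of 6 were above 0 and the median was -0.10, and without DSS 1 the median was 0.03. With the mean counted gene length as a covariate it was 0.68, above the 0.61 of the cytosolic synthetases in that fit. The cytosolic elongation factors had a median of 0.09, with Eef1g at 0.49, Eif5a at 0.43 and Eef2 at 0.14. The list of 6 mitochondrial translation factors, which includes the initiation factors Mtif2 and Mtif3, had a median of 0.45. Its lowest values were -0.09 for Mtif2, 0.18 for Mtif3 and 0.38 for Gfm2. Gfm1, the translocase of the organelle, had 81.2, 65.9, 36.9 and 58.8 CPM in DSS_CA, against 41.6, 29.7, 31.7 and 36.0 CPM in DSS. DSS_CA 3 alone fell in the DSS range, and the log2 fold change was 0.80 (SE 0.300, edgeR adjusted p = 0.461), while Tsfm was at 0.65 and Tufm at 0.53. None of these lists held a gene past the adjusted threshold in edgeR with all 8 libraries, nor with DESeq2. Without DSS_CA 3, DSS 2 and DSS 3, 4 genes of these lists and of the scaffolds passed in edgeR, namely Tsfm (adjusted p = 0.0376), the tRNA modification genes Mettl1 (adjusted p = 0.0449) and Dus2 (adjusted p = 0.0497), and the scaffold gene Aimp2 (adjusted p = 0.0496). Differences between the lists and the synthetases were not tested.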

How the data were processed

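RNA of mouse crypts was sequenced in 8 libraries, 4 DSS_CA and 4 DSS, from 200 ng of total RNA each with the TruSeq Stranded Total RNA kit, per the labels' protocols. Each deposited table gives raw counts and FPKM per Ensembl gene, per the file headers. The submitters' processing notes name the mouse builds GRCm38 and mm10, and the tools HISAT2 and StringTie. No source used here gives the tool versions, the counting tool, its annotation or its strand setting. The deposited FPKM values equalled count over a fixed gene length and total count, and the implied length agreed within 1% for 17718 of 17718 genes with counts in several libraries.

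Counts were tested with edgeR 4.0.16 (limma 3.58.1, R 4.3.3), two-sided, with TMM scaling and group as the only term, for 9913 genes. P-values were adjusted over all of them by the Benjamini-Hochberg method. Each SE was derived from the test, as the size of the log2 fold change over the root of F. The common biological coefficient of variation was 0.416. DESeq2 1.42.0, other scalings and filters, single libraries left out, the replicate number as a block, and 2 settings for libraries of short counted genes were alternatives. Tables and figures were made with pandas 2.3.3, numpy 2.4.6 and matplotlib 3.10.9 in Python 3.11.15. The edgeR step was tested on simulated data. It recovered 7.46% of 67 genes set 2-fold apart, 74.6% of 67 set 4-fold apart and 97% of 66 set 8-fold apart. It also called 12 genes that were not set apart. The largest fold of a tested member in the real libraries, DSS_CA over DSS, was 2.14, for Gars.

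The members and gene lists were chosen with earlier results of these data known, so the counts are descriptions of these libraries. Named were the 8 cytosolic, 5 mitochondrial and 2 other members and the 3 genes of each list with the smallest p, and always Wars, Eprs, Kars, Gars, Aars, Lars2, Qars, Atf4, Aimp1, Aimp2 and Eef1e1. Every other member is given by its fold change, its level or a range, except that values of 1 member and 1 list gene are not reported here, and Hars, Dars, Vars, Hars2, Cars2, Ddit3, Mettl1 and Dus2 and the colonocyte markers were singled out after their values were seen. Promoter sequences and transcription starts are from RefSeq, and a promoter was matched only within 1000 bases of the member's locus. Exon and overlap annotation is from GENCODE M21. No pairs of libraries differed by less than sampling noise.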

Additional observations from a re-analysis of the deposited data

Results flagged for a closer look

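Outliers were sought in 142 groups of 4 libraries, for each member, Lars2 and each named list gene in DSS_CA and in DSS. Iars and Rars, which are both members and list genes, were entered as each and so counted again. The library farthest out was set against the other 3 by Dixon's test at its 95% critical value. It stood apart in 10, and chance gives about 1 in 20. Among members, DSS_CA 3 was high for Dars, at 260.9 CPM against 56.9 to 79.3 CPM in the other DSS_CA libraries. It was low for Tars2, at 22.6 CPM against 37.0 to 38.9 CPM, and for Gatc, at 9.60 CPM against 17.0 to 17.4 CPM. DSS_CA 1 was low for Sars, at 103.2 CPM against 149.6 to 158.8 CPM. DSS 3 was high for Cars2, at 27.0 CPM against 10.3 to 11.8 CPM in the other DSS libraries, and for Qrsl1, at 12.5 CPM against 8.19 to 8.75 CPM. Among list genes, DSS_CA 3 was high for Eef1e1, at 182.5 CPM against 20.4 to 42.9 CPM. DSS 3 was high for Aimp2, at 36.3 CPM against 18.7 to 20.7 CPM, and for Irf7, at 101.3 CPM against 69.5 to 72.8 CPM. DSS 2 was high for Ido1, at 100.6 CPM against 37.1 to 42.8 CPM. Of these 10, 4 were in DSS_CA 3 and 4 in DSS 3, 2 of the 3 libraries with the shortest counted genes, and the part of gene length in them was not tested.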

How the results depend on the processing

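The median log2 fold change of the cytosolic synthetases was 0.56 to 0.73 without single libraries, and that of the mitochondrial synthetases 0.13 to 0.41. The edgeR counts of genes higher and lower, 4 and 9 over all genes, were 7 and 20 with RLE size factors, 51 and 169 with DESeq2, 18 and 61 with no filter, and 234 and 421 without DSS_CA 3, DSS 2 and DSS 3. With the mean counted gene length as a covariate they were 294 and 324. Without 1 library they were 0 to 19 higher and 4 to 65 lower. The most came without DSS_CA 3, and 0 were higher without DSS_CA 2, DSS_CA 4, DSS 1, DSS 2 or DSS 4. Members higher numbered 2 with DESeq2, 6 without the 3 libraries, 8 with the covariate and 0 under each other alternative. Whether the replicate numbers pair the samples was left undecided. Deviations of same-numbered libraries correlated at 0.752, -0.344, 0.105 and 0.197. Those of different-numbered libraries ran from -0.707 to 0.734, a spread too wide for these values to decide it. With the replicate block, 14 genes were higher and 51 lower, and 0 members passed.

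The median of the other enzymes was 0.43 without the 3 libraries, 0.44 with the covariate and 0.20 to 0.42 without single libraries. That of the RNA polymerase III genes was 0.085 without the 3 libraries and 0.094 to 0.27 without single ones. The log2 ratio of summed cytosolic level per length was 1.09 with TPM in place of FPKM. Of the 40 members, 10 changed sign under 1 or more of 15 alternatives, 2 of them cytosolic (Dars and Vars), 6 mitochondrial and 2 others (Gatb and Pstk). Among them were Dars (-0.19 to 1.02), Cars2 (-0.26 to 0.42), Sars2 (-0.33 to 0.49), Rars2 (-0.23 to 0.50) and Ears2 (-0.26 to 0.24). The median of the editing and deacylase genes was -0.10 without DSS_CA 3, and 0.68 with the covariate, where that of the cytosolic synthetases was 0.61. Among named list genes, Eef1e1 and Eef2 changed sign: leaving out single libraries gave -0.50 to 0.95 for Eef1e1 (-0.50 without DSS_CA 3), and -0.057 to 0.35 for Eef2 (lowest without DSS 2), and the covariate gave -0.11 for Eef2. The cause of these shifts was not tested. Of the values for single genes, ranks included, 672 kept their direction and side of the threshold, 41 newly passed it and 5, all of Psat1 without a single library, missed it. Ranks per transcript length were added after seeing the data. With all 8 libraries and group as the only term, edgeR called 0 members.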
